A study of Mus musculus with 6 samples.

Results

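The ephrins and Eph receptors of NME and AGR cells were read from 6 microarrays (Affymetrix Mouse Gene 1.0 ST), with 3 per cell line. The set held 10 genes and was chosen with earlier results of these data known. Its ligands were Efna1, Efna4, Efna5, Efnb1 and Efnb2, and its receptors were Epha2, Epha4, Epha7, Ephb2 and Ephb4. Of the 10 genes, 9 were measured, out of 19938 genes tested. Ephb2 was not analysed here. Each gene was represented by the brightest probe set whose only symbol was that gene, and its level was the log2 of the intensity. NME cells are NMuMG cells, an epithelial line from the normal mouse mammary gland, transformed by stable overexpression of EGFR. AGR cells are the descendants of 1 NME colony that kept growing in 3D culture on Cultrex, a basement membrane extract, during 14 days with 1 µM AG1478, a small molecule inhibitor of the EGFR kinase. They were expanded in 2D culture and kept without the drug. Both lines therefore carry the EGFR construct. The study's methods give a medium with serum and insulin for the drug-resistant lines and do not name one for NME cells. As AGR cells come from a single colony, what distinguishes resistant cells and what distinguishes that colony cannot be told apart. The sources used here do not say whether separate cultures were hybridised, so the p-values reflect only how far the 3 arrays of a line spread, which may be technical.

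Eph receptors are the largest subfamily of receptor tyrosine kinases, and their ligands, the ephrins, are themselves bound to the cell surface, so that signals pass between cells that touch. Ephrins of the A class are held by a lipid (GPI) anchor and mostly bind EphA receptors, whereas ephrins of the B class span the membrane and mostly bind EphB receptors. EphA4 is unusual in binding ligands of both classes. Signals run forward into the cell with the receptor and in reverse into the cell with the ligand, and both change the cytoskeleton through small GTPases. The family is known from axon guidance, from the boundaries between tissue compartments and from arteries and veins. In the mammary gland ephrin-B2 and EphB4 take part in the order of the ductal epithelium, and EphA2 with its ligand ephrin-A1 has been studied in breast cancer.

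Of the 9 measured genes, 5 rose and 1 fell in AGR cells, with a threshold of 0.05 on the p-value from limma after Benjamini-Hochberg adjustment over all genes, and 3 did not pass. This was 66.7% of the measured members, against 24.2% of all genes tested that passed in either direction, 12.6% as higher and 11.6% as lower. As the members were chosen with earlier results known, their share is only a description. Of all 19938 genes tested, 8034 were dimmer than the median probe set in both lines, against 0 of the 9 members. The shares were not matched for brightness. The genes that rose were Efna5, Efnb1, Efnb2, Epha4 and Epha7, and the gene that fell was Efna1. Over all 9 measured genes the median log2 fold change (FC) was 0.74, where the median of all genes tested was -0.02. With a FC above 2 in addition, Efnb2 and Epha7 were called, both higher, where 3.00% of all genes met both criteria, 1.50% as higher and 1.50% as lower. The arrays of the cell lines did not overlap for the 6 genes that passed and overlapped for the other 3, and 36.4% of all genes tested did not overlap, 17.9% as higher and 18.5% as lower.

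**Figure D1:**
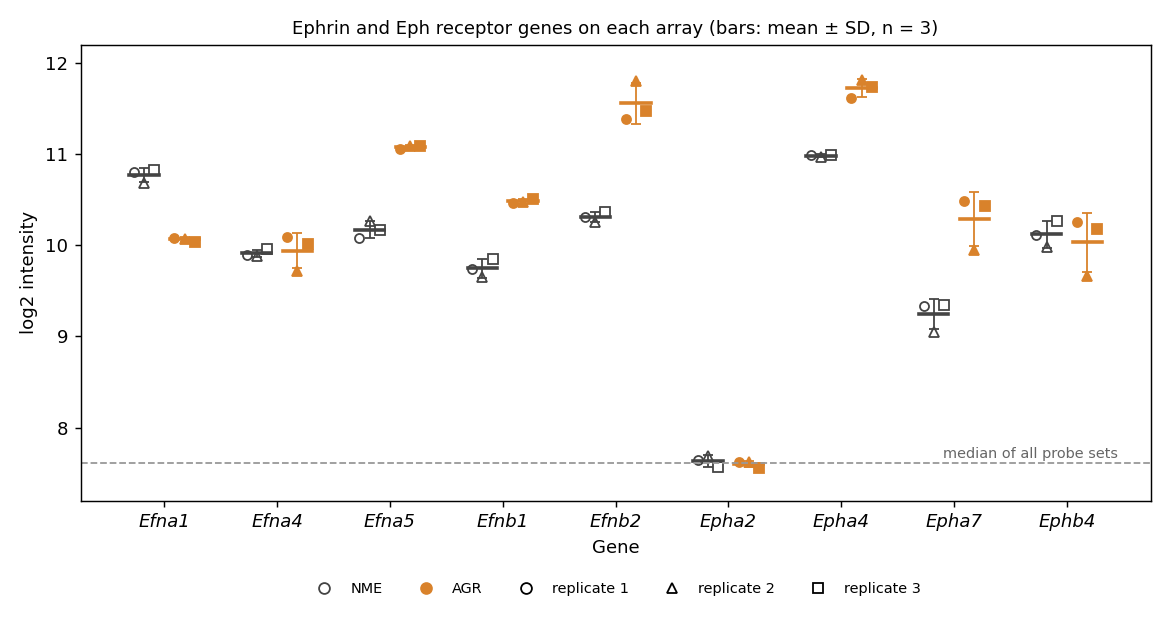
The y axis gives the log2 intensity of each of the 9 measured genes (x axis) on each array, with open symbols for NME and filled symbols for AGR cells, a shape for each replicate number, and lines for the mean ± SD (n = 3). Efna5, Efnb1, Efnb2, Epha4 and Epha7 lie higher in AGR cells, Efna1 lies lower, and Epha2 lies at the dashed line, the median of all probe sets (7.61).

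The B class ligands Efnb1 and Efnb2 both rose. Efnb2 encodes ephrin-B2, the arterial ephrin and the main partner of EphB4. Its log2 intensity was 10.31, 10.25 and 10.36 on NME arrays 1 to 3 and 11.38, 11.80 and 11.48 on AGR arrays 1 to 3. Every AGR array was more than 1 log2 unit above every NME array. The log2 FC was 1.25 (SE 0.11, limma adjusted p = 3.2e-04), a 2.38-fold increase from 10.31 ± 0.06 (SD, n = 3) to 11.55 ± 0.22 (SD, n = 3). AGR replicate 2 was the highest array, 0.37 above the mean of the other 2 AGR arrays, and without it the log2 FC was 1.12 (limma adjusted p = 1.4e-04).

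Efnb1 encodes ephrin-B1, a ligand of EphB receptors that is known for its role in the face and skull. Its log2 intensity was 9.74, 9.65 and 9.85 in NME cells and 10.46, 10.48 and 10.51 in AGR cells. The AGR arrays lay close together, within a range narrower than that of the NME arrays. The log2 FC was 0.74 (SE 0.06, limma adjusted p = 2.5e-04), a FC of 1.67.

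The A class ligands went in different directions. Efna5 encodes ephrin-A5, which repels growing axons in the visual system. Its log2 intensity was 10.08, 10.26 and 10.17 in NME cells and 11.06, 11.09 and 11.09 in AGR cells, with no overlap. The log2 FC was 0.91 (SE 0.06, limma adjusted p = 7.7e-05), a FC of 1.88, and under the alternatives listed with the processing it stayed between 0.86 and 0.96. Efna1, which encodes ephrin-A1 and was first described as a gene induced by tumour necrosis factor in endothelium, measured 10.80, 10.68 and 10.83 in NME cells and 10.08, 10.07 and 10.04 in AGR cells. All AGR arrays were lower than all NME arrays. The log2 FC of Efna1 was -0.71 (SE 0.05, limma adjusted p = 1.7e-04), so its level in NME cells was 1.63-fold that in AGR cells.
Efna4, the gene of ephrin-A4, measured 9.90, 9.88 and 9.96 in NME cells and 10.09, 9.72 and 10.01 in AGR cells. The arrays overlapped, with AGR replicate 2 below and the other AGR arrays above all NME arrays. Its log2 FC was 0.03 (95% interval -0.20 to 0.26, limma adjusted p = 0.885), and it turned to -0.046 without AGR replicate 1 and to -0.0084 without AGR replicate 3.

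Among the EphA receptors, Epha4 and Epha7 rose. Epha7, a receptor of A class ephrins that is best known from the developing brain, measured 9.34, 9.05 and 9.35 in NME cells and 10.49, 9.95 and 10.43 in AGR cells. The lowest array of either line was replicate 2, and the lines did not overlap. The log2 FC was 1.04 (SE 0.16, limma adjusted p = 0.00335), a FC of 2.06 close to the threshold. Without NME replicate 2, AGR replicate 1 or AGR replicate 3 its FC was below 2, with log2 FCs of 0.95, 0.94 and 0.97, and without AGR replicate 2 the log2 FC was 1.21. It passed the test at an adjusted p under 0.05 in each of these.
Epha4 encodes the receptor that binds A and B class ephrins. Its log2 intensity was 10.99, 10.97 and 10.99 in NME cells and 11.62, 11.82 and 11.73 in AGR cells. The NME arrays were nearly equal, and the lowest AGR array was more than 0.6 above them. The log2 FC was 0.74 (SE 0.06, limma adjusted p = 2.1e-04), a FC of 1.67.
Epha2, the receptor for which ephrin-A1 is the main ligand, measured 7.65, 7.69 and 7.57 in NME cells and 7.62, 7.62 and 7.56 in AGR cells. These levels lay at the median over probe sets (7.61), and signal could not be told from background there because no detection calls came with the arrays. The log2 FC of Epha2 was -0.04 (95% interval -0.15 to 0.08, limma adjusted p = 0.682), which describes the probe set and not necessarily the transcript.

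The measured EphB receptor of the set did not pass the test. Ephb4, the venous partner of ephrin-B2, measured 10.11, 9.98 and 10.27 in NME cells and 10.25, 9.66 and 10.18 in AGR cells. Here replicate 2 was the lowest array of either line, and AGR replicate 2 lay 0.55 below the mean of the other AGR arrays. The log2 FC of Ephb4 was -0.09 (95% interval -0.47 to 0.29, limma adjusted p = 0.77), and it was 0.10 without AGR replicate 2. The interval spans changes in both directions, so a moderate change of Ephb4 was not detectable with these arrays. Over all genes tested, AGR replicate 2 was also the array that differed by more than 2-fold from the other arrays of its line in the highest number of genes, 36, against 7 for AGR replicate 1, at most 1 for any NME array and 0 for AGR replicate 3. For Efnb2, Epha7, Ephb4 and Efna4 it was the array farthest from the others, in the upward direction for Efnb2 and in the downward direction for Epha7, Ephb4 and Efna4.

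Changes of textbook ligand and receptor partners were set against each other within each array, a difference that a constant factor per array does not change. The change of Efnb2 exceeded that of Ephb4 by 1.34 on the log2 scale, and for Efna1 against Epha2 the difference was -0.67. As the Epha2 probe set could not be told from background, the latter value cannot be read as a difference between ligand and receptor. The exact permutation test (two-sided, 2 pairs tested) gave p = 0.1 for each, which is the smallest value that 3 against 3 arrays allow. The value for Efnb2 and Ephb4 was 1.03 without AGR replicate 2.

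The other 12 ephrin and Eph genes of the mouse were read from the same arrays, so that 21 of 22 family genes were measured. Of these 12, 2 rose in AGR cells and 0 fell by the same test from limma (0 were lower at an unadjusted p under 0.05 as well), which is 16.7% against 24.2% of all genes tested. Efna3, the gene of ephrin-A3, measured 7.18, 7.13 and 6.94 in NME cells and 7.85, 7.59 and 7.65 in AGR cells, and its log2 FC was 0.61 (SE 0.09, limma adjusted p = 0.00302). All NME arrays and AGR replicate 2 were below the median over all probe sets, and the other AGR arrays were slightly above it. Ephb1, a receptor of B class ephrins, measured 7.11, 7.21 and 7.19 in NME cells and 7.61, 7.69 and 7.76 in AGR cells, and its log2 FC was 0.52 (SE 0.06, limma adjusted p = 8.4e-04). A second probe set of Ephb1 had a log2 FC of -0.03 at levels of 6.87 and 6.85, and with the mean of both the log2 FC was 0.25. Levels of Efna3 and Ephb1 began below the median, so their FCs are uncertain.
The log2 FCs of the 10 genes that did not pass lay between -0.15 and 0.16. Of the 12 genes, 6 were dimmer than the median probe set in both lines (of the 9 members, 0 did), and 7 had exactly the same value on 2 or more arrays, as did 27.2% of all probe sets. For Epha5 all 3 AGR arrays held the same value, 7.31, so its SD in AGR cells was 0.00 and its spread was not measured there.

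**Figure D2:**
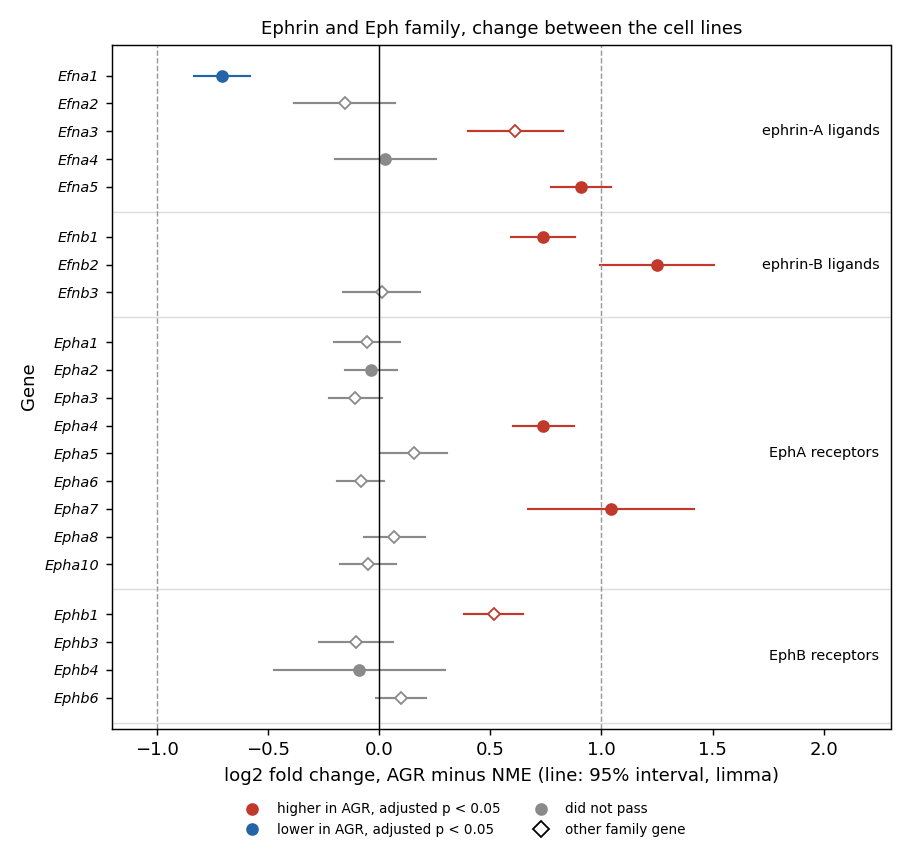
The x axis gives the log2 fold change (AGR over NME) with its 95% interval for the 21 measured ephrin and Eph genes (y axis), grouped by class, with filled circles for the 9 members and open diamonds for the other genes. The 7 red symbols passed as higher and the blue symbol, Efna1, passed as lower, and dashed lines stand at a FC of 2 in either direction.

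By class, 2 of 5 A class ephrins rose and 1 fell, 2 of 3 B class ephrins rose, 2 of 9 EphA receptors rose and 1 of 4 measured EphB receptors rose. Among all 21 genes, 8 passed, which is 38.1% against 24.2% of all genes tested, without matching for brightness. Beside the 12.6% of all genes tested that rose, the counts of every class, ligands and receptors alike, rest on few genes and do not set any class apart. Genes of ligands and of receptors thus rose in the same cell line, and 13 family genes did not pass. Whether single cells hold both was not measured.

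Efna1, Efna3 and Efna4 stand next to each other on mouse chromosome 3, in this order and with no measured protein-coding gene between them, in the RefSeq gene table of assembly GRCm38.p6. Of these neighbours, Efna1 fell, Efna3 rose and Efna4 did not pass. The level of Efna3 in NME cells (7.08) was below the median probe set, so its FC is uncertain. Adam15, which encodes a membrane-bound metalloprotease and follows Efna4, rose with a log2 FC of 0.49. Farther on that side Dcst1 and Dcst2 did not pass (-0.04 and 0.01), Zbtb7b and Shc1 fell with log2 FCs of -0.40 and -0.36, and Cks1b rose with 0.61, so genes moved in both directions there. On the side of Efna1, Slc50a1, Krtcap2 and Trim46 fell with log2 FCs of -0.27, -0.33 and -0.36, and Muc1, the gene of the epithelial mucin, fell with -1.82, while Dpm3 had a log2 FC of -0.08 and did not pass. The genes beside the ephrins were named after their values were seen. For the members that rose, of the 10 nearest measured protein-coding genes (5 on each side) 2 were higher and 2 lower around Efna5, 1 and 1 around Efnb1, 1 and 1 around Efnb2, 1 and 1 around Epha4, and 3 and 0 around Epha7. Over all genes tested, 12.6% passed as higher and 11.6% as lower. Medians of these neighbours lay between -0.07 and 0.09 on the log2 scale, so the increases of these members were not shared by most of the genes beside them.

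**Figure D3:**
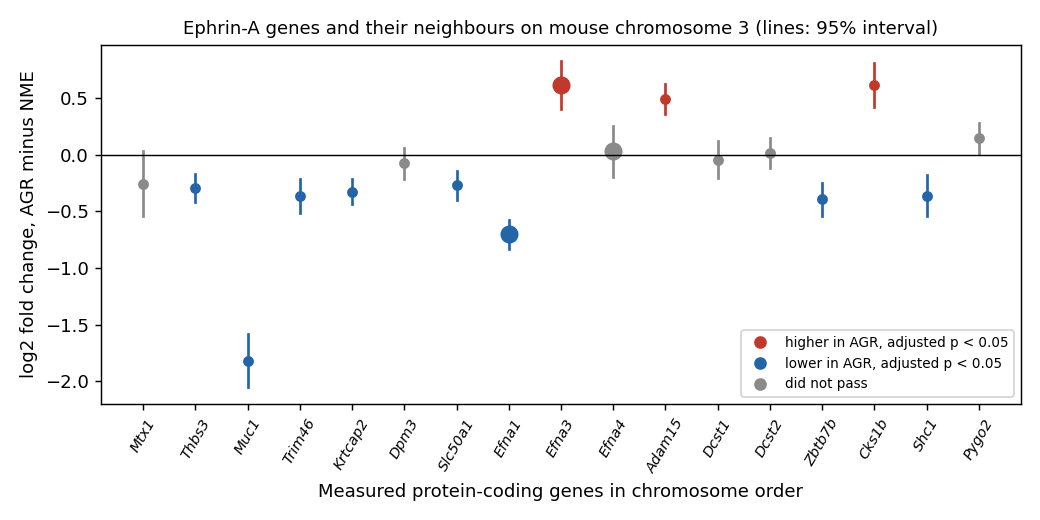
The y axis gives the log2 fold change (AGR over NME) with its 95% interval for Efna1, Efna3 and Efna4 (large points) and 7 further measured genes on each side, in chromosome order along the x axis without scale. Efna1 lies at -0.71 and the adjacent Efna3 at 0.61, and Muc1 is the lowest point at -1.82. The level of Efna3 in NME cells was below the median probe set, so its value is uncertain.

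The bases upstream of the start of these genes are shown for Efnb2 and Epha7, the members with a FC above 2. They are also shown for Efna1 and Efna3, the adjacent genes that went in opposite directions, although the FC of Efna3 is uncertain. All are 250 bases that end at the base before the annotated start, from the RefSeq promoter table of GRCm38.p6, and where the table held 2 starts (Efna1, Efna3 and Epha7) the one listed first is shown. The motifs searched on both strands were CAGGTG, the E-box letters known to be bound by ZEB and SNAI repressors, GGAATG, known to be bound by TEAD factors, and TGANTCA, known to be bound by AP-1, and none of these overlaps another in the windows shown. Capitals mark their matches.
Efnb2 (chr8:8661243-8661492, minus strand): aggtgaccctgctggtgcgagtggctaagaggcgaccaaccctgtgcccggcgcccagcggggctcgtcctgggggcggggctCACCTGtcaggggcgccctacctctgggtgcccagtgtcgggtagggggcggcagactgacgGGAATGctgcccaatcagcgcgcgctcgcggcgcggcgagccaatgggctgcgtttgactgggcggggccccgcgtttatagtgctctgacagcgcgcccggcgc
Epha7 (chr4:28812881-28813130, plus strand): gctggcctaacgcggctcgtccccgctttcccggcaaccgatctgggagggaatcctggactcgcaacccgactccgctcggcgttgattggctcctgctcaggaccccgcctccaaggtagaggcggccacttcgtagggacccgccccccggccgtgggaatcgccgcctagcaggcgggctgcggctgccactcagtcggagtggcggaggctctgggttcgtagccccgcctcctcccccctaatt
Efna1 (chr3:89280952-89281201, minus strand): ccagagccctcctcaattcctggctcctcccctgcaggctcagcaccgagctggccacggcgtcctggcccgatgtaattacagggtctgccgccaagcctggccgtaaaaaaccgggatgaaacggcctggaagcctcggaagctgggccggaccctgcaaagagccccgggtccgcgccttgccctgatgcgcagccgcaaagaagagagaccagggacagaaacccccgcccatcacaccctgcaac
Efna3 (chr3:89322940-89323189, minus strand): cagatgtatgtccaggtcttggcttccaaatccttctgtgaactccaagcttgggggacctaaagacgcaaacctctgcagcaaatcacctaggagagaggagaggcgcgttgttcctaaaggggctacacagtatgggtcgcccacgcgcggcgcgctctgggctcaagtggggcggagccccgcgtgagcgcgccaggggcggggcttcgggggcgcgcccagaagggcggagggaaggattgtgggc
Upstream of Efnb2, CACCTG, the reverse complement of the E-box letters, lay 167 to 162 bases before the start and GGAATG lay 105 to 100 bases before it. The other windows shown held none of the 3 motifs. Of 27025 promoters in the table, 17.1% held the E-box letters, 12.6% the TEAD letters and 6.87% the AP-1 letters. Among the 10 genes of the set the E-box letters were found for Efnb2 and Ephb2, the TEAD letters for Efnb2 and Epha2, and the AP-1 letters for 0. Outside the set, Epha1 held both the E-box and the TEAD letters, and Epha3 held the TEAD letters. Neither Epha1 (log2 FC -0.05) nor Epha3 (log2 FC -0.11) passed. Both were dimmer than the median probe set in both lines, where signal could not be told from background. Their values therefore do not show whether genes with these letters rose. The windows of the 10 genes had a median GC content of 65.4% and a median of 15 CG dinucleotides, compared with 52.0% and 6 over all promoters. Windows of the other family genes in the promoter table held from 9 (Epha1) to 46 (Epha8) CG dinucleotides, so counts above 6 were not particular to the set. Among the members that rose, Efna5 had 32 CG dinucleotides, Efnb2 27, Epha7 25, Epha4 14 and Efnb1 13. Efna1, which fell, had 16, and those that did not pass had 12 (Ephb4), 9 (Epha2) and 7 (Efna4), so the counts of genes that rose lay on both sides of the gene that fell. The array data do not measure binding, and no use of these letters was tested.

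For the members with a FC above 2, the genes with the most similar values over the 6 arrays were sought among all genes tested, as the root mean square distance after the NME mean of each gene was subtracted. For Efnb2 these were Zeb2, an EMT transcription factor, at a distance of 0.05 and Dusp14, a dual specificity phosphatase, at 0.06 on the log2 scale. Zeb2 measured 8.60, 8.64 and 8.59 in NME cells and 9.68, 10.07 and 9.82 in AGR cells, with replicate 2 the highest AGR array as for Efnb2. For Epha7 the most similar genes were Cpped1, a phosphatase gene, at 0.04 and Bnc1, which encodes the zinc finger protein basonuclin 1, at 0.06. Cpped1 measured 10.74, 10.41 and 10.61 in NME cells and 11.84, 11.32 and 11.76 in AGR cells, and replicate 2 was the lowest array of either line, as for Epha7. The distances are a description over 6 arrays, from a search that keeps the closest of many genes.

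**Figure D4:**
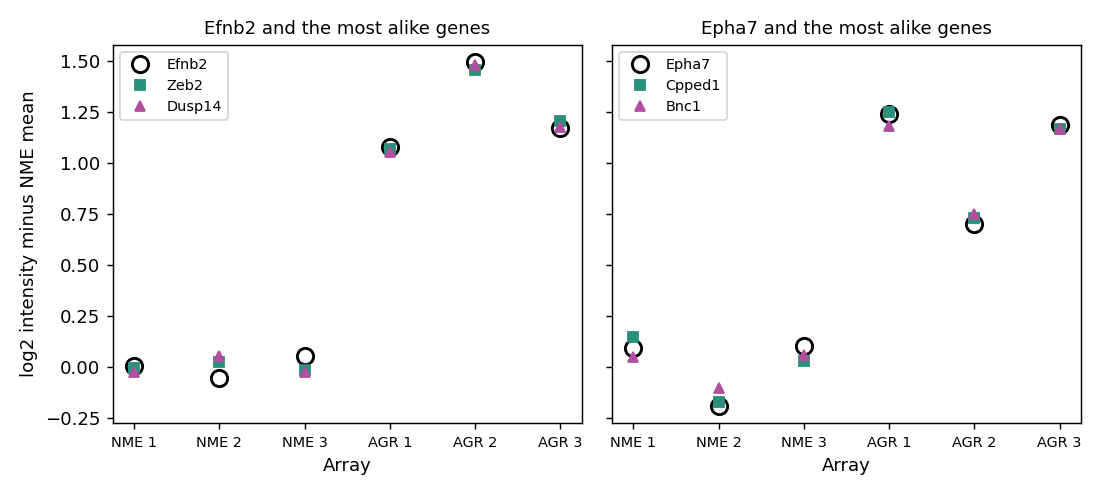
The y axis gives the log2 intensity minus the NME mean of the gene on each array (x axis), for Efnb2 with Zeb2 and Dusp14 (left) and for Epha7 with Cpped1 and Bnc1 (right). AGR replicate 2 is the highest AGR array in the left panel and the lowest in the right panel.

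A list of genes that act with Eph receptors and ephrins was read next, with 55 of 60 genes measured. In AGR cells 16 rose and 6 fell by the limma test, together 40.0% against 24.2% of all genes tested, and 33 did not pass. Of the 55 genes, 9 were dimmer than the median probe set in both lines, against 8034 of all 19938 genes tested. These shares were not matched for brightness either. Over the list the median log2 FC came to 0.04. Of the exchange factors and regulators of small GTPases, 5 of 11 rose and 2 fell. The latter were Ngef, which encodes ephexin-1, the exchange factor bound by EphA receptors, and Arhgef16, which encodes ephexin-4, a partner of EphA2. Ngef fell from 9.21 to 8.25, and its log2 FC was -0.96 (SE 0.04, limma adjusted p = 1.6e-05), and Arhgef16 had a log2 FC of -0.58. Chn2, the gene of β-chimaerin, which inactivates Rac, rose with a log2 FC of 0.56.
Among 8 partners with PDZ or RGS domains, Ptpn13 and Rgs3 rose and Pard6b fell. Ptpn13 encodes a tyrosine phosphatase that binds the tail of B class ephrins and takes phosphate off them, and its log2 FC was 1.07 (SE 0.10, limma adjusted p = 4.5e-04). Rgs3 encodes a regulator of G protein signaling that is bound by B class ephrins, and its log2 FC was 0.53, or 0.24 with the mean of its probe sets. Pard6b, a polarity gene whose protein binds ephrin-B1, had a log2 FC of -0.37, and its adjusted p rose to 0.103 when single arrays were left out.
Of 6 sheddases, secretases and ubiquitin ligases, 3 rose. Adam12, a membrane-bound metalloprotease that has been reported to cleave ephrin-A1, had the largest change of the list, from 7.93 to 9.89 and its log2 FC was 1.96 (SE 0.10, limma adjusted p = 2.6e-05). Adam10, the sheddase best known for ephrins, measured 11.21 and 11.12 and did not pass. Cbl and Cblb, ubiquitin ligases that mark receptors for degradation, had log2 FCs of 0.49 and 0.43.
Of 11 adaptors, 2 rose and 1 fell, the latter being Grb7 with a log2 FC of -0.80 and an adjusted p of up to 0.0814 when single arrays were left out. Rasa1, which encodes the Ras GTPase-activating protein that binds EphB receptors, rose by 0.67 and was the only 1 of 6 phosphatases and GTPase-activating proteins to pass. Of 7 kinases and PI3K subunits Abl1 and Abl2 rose, and Pik3r1 fell with a log2 FC of -0.56. Rock1, a kinase that acts on the actin cytoskeleton, rose by 0.53, and Rac1 fell with a log2 FC of -0.16. Adam10, Abl1, Abl2, Cbl, Cblb, Rock1 and Rac1 were named after their values were seen.

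**Figure D5:**
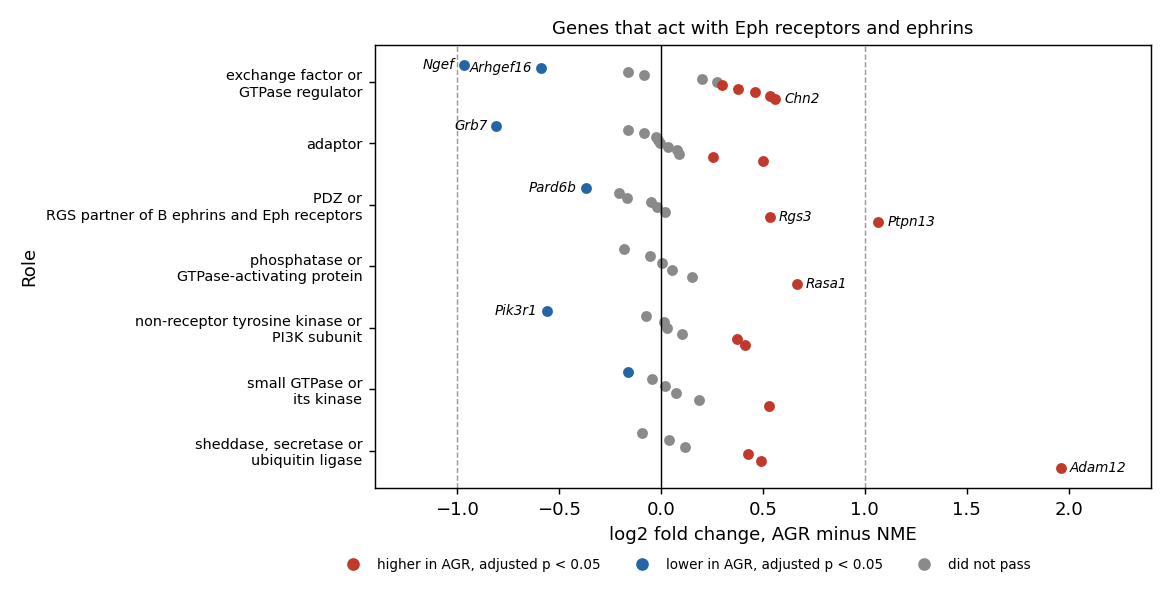
The x axis gives the log2 fold change (AGR over NME) of the 55 measured genes that act with Eph receptors and ephrins, grouped by role on the y axis. The 16 red points passed as higher and the 6 blue points as lower, the gray points are genes that did not pass, dashed lines stand at a FC of 2, and Adam12 lies farthest to the right at 1.96.

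The cell lines were checked against markers. Of 8 mammary epithelial markers, Krt8 (14.23 in NME and 14.13 in AGR cells), Krt18 (13.63 and 13.58) and Cdh1 (13.54 and 12.93) were high in both lines, and Cdh1 was the only 1 of the 8 to pass, as lower. The summed intensity of the 8 was 44508 to 44682 in NME and 38226 to 39291 in AGR cells, with no overlap. On the linear scale this sum is set mostly by Krt8, Krt18 and Cdh1, so it does not show a fall of all 8. Epcam (6.58 and 6.51) and 3 others of the list were dimmer than the median probe set in both lines. Efnb2 and Ephb4 are also vascular genes, and 0 of 7 endothelial markers passed, 6 of them lay below the median in both lines, and their summed intensity was 884 to 969 in NME and 897 to 921 in AGR cells. Of 5 measured immune markers Cd68 and Csf1r rose, with log2 FCs of 0.96 and 0.28, the summed intensity was 849 to 912 in NME and 1138 to 1173 in AGR cells, and the defining marker Ptprc lay below the median in both lines (7.08 and 7.14). Pdgfra rose with a log2 FC of 0.39 among 6 fibroblast markers, whose summed intensity was 1191 to 1306 in NME and 1250 to 1301 in AGR cells, and 0 of 6 neural markers passed, with a summed intensity of 1418 to 1466 in NME and 1468 to 1518 in AGR cells, which did not overlap either. The part of these cell types in the results was not tested. Cd68, Csf1r and Pdgfra were named after their values were seen. Egfr, the overexpressed gene, measured 12.31 in NME and 12.54 in AGR cells and did not pass (log2 FC 0.23, limma adjusted p = 0.139), and whether its probes match the introduced construct was not examined. Median intensities of the arrays lay between 190.4 and 200.8, and arrays were similar in scale.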

How the data were processed

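The values deposited by the authors were array intensities on a linear scale for 35557 probe sets. The submitters' processing notes list MAS5 with no version. MAS5 uses mismatch probes, which these arrays lack, and how the arrays were scaled to each other is not given in the sources used here. No detection calls came with the values, and precision is limited by the number of arrays. From the deposited intensities log2 was taken with no offset. Probe sets were named through the platform annotation, and 21789 with 1 symbol were used, which gave 19938 genes. All 21 measured family genes matched RefSeq by gene ID.

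The cell lines were compared in limma 3.58.1 (lmFit and eBayes, R 4.3.3), with Benjamini-Hochberg adjustment over all genes. Thresholds were those of the study, an adjusted p under 0.05 and, where stated, a FC above 2. The exact permutation test was run in scipy 1.17.1. The genes named by plan were all members, the other family genes that passed and up to 5 genes of the signalling list in each direction. Defining markers, Egfr and the 2 most similar genes of each member with a FC above 2 were also named by plan. Further genes were named after their values were seen. The members and lists were chosen with earlier results of these data known. Change of Efnb1 against change of Ephb2, which had been planned, was not analysed here.

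Alternatives were quantile normalization, centring of arrays on their medians, leaving out genes below the 25th percentile or the median over probe sets, averaging the probe sets of each gene, eBayes with trend and robust settings, array weights, the two-sided test of the study's methods, an offset of 16 before log2, the replicate number as a block, and leaving out each array. The fits were tested on simulated data.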

Additional observations from a re-analysis of the deposited data

How the results depend on the processing

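Over the 16 alternatives, 17 of the 21 genes followed kept their direction and their side of the threshold, among them the 6 members that passed. The number of members that rose with a FC above 2, which was 2, was between 1 and 2 when single arrays were left out, as Epha7 fell below a FC of 2. Without single arrays the log2 FC of Ephb4 ranged from -0.20 to 0.10, higher than 0 without AGR replicate 2, and that of Efna4 from -0.046 to 0.14, below 0 without AGR replicates 1 and 3. With genes below the median left out, 0 of the 4 other family genes still tested passed as higher, since Efna3 and Ephb1 were no longer tested. The number of signalling genes that fell, 6, was between 3 and 6 without single arrays and 3 with the two-sided test of the study's methods, which Grb7 and Pard6b, among others, did not pass. Titles number the arrays of both lines 1 to 3. Deviations of same-numbered arrays from the mean of their line had correlations of -0.13, 0.33 and 0.26 across genes. Over all pairs of an NME with an AGR array these ranged from -0.47 to 0.36. These correlations do not decide whether same-numbered arrays were handled together, and the titles do not say so. The main fit therefore used no pairs, and the block was an alternative. With the replicate block, 5 members were higher and 1 lower, and the log2 FC of Epha7 had an adjusted p of 2.6e-04 from limma. For the partner differences the block gave 1.34 and -0.67, each with p = 0.25 from an exact sign test, the smallest that 3 pairs allow. Centring the arrays on their medians moved the median log2 FC of all genes from -0.02 to 0.01. Levels near or below the median of all probe sets (Epha2, Efna3, Ephb1) could not be separated from background.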
